A study of Rattus norvegicus with 54 samples.

Results

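Adult female Long Evans rats exposed to ethanol before birth and again in adolescence (PAE-AAE, 5 libraries) were compared with females whose dams drank a free-choice liquid diet and that received water in adolescence (FCL-VEH, 8 libraries). These 13 libraries, chosen by the group named in their titles, are part of 54 bulk RNA-seq libraries of the nucleus accumbens. Brains were taken at postnatal day 90 with no further challenge, and both groups are of 1 strain, for which the labels give no allele or transgene. Because prenatal and adolescent exposure occur together in the adult groups, their effects cannot be told apart. Adult males of the same 2 treatments (6 and 6 libraries) shared the fit, and females at postnatal day 42 with prenatal ethanol and adolescent water (PAE-VEH, 4 libraries) or FCL-VEH (7 libraries) are set beside them as values.

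The nucleus accumbens is the ventral part of the striatum. Most of its neurons are inhibitory medium spiny neurons, which receive dopamine from the midbrain and glutamate from cortex, hippocampus and amygdala, and which carry either the D1 receptor with dynorphin and substance P or the D2 receptor with enkephalin. Immediate early genes such as Fos, Egr1 and Nr4a1 are transcribed within minutes of synaptic activity, partly through the factor CREB bound at cyclic AMP response elements. Chaperones of the heat shock families fold proteins in the cytosol, and a related set led by Hspa5 does so in the endoplasmic reticulum.

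The libraries held 58.9 to 94.1 M counts on named genes. Length-scaled levels (FPKM, mean of the 13 libraries) were those of a striatal sample, with 510.3 for Ppp1r1b, the dopamine-regulated phosphatase inhibitor DARPP-32, 429.9 for Penk, 65.7 for Drd1 and 57.5 for Drd2, while Th, the dopamine-synthesis enzyme of midbrain axons, was at 0.93. Other tissue was unevenly present. The summed level of 14 cortical excitatory neuron markers was 1509 CPM (counts scaled to library size) in FCL-VEH replicate 2, 900 in replicate 6, 750 in replicate 7 and 1029 in PAE-AAE replicate 3, against 251 to 387 in the other 9 libraries. FCL-VEH replicate 1 had the lowest summed level of medium spiny neuron markers (4507 CPM), the highest of myelin (20702) and microglia markers (1023), and the lowest median correlation with its own group (0.952). The 14 choroid plexus markers summed to 1361 CPM in PAE-AAE replicate 2 and 3869 in replicate 3, against 44 to 854 elsewhere. In bulk tissue, fewer cells of a type and less RNA per cell cannot be told apart. Xist, the RNA of the inactive X, was at 356 to 1074 CPM per total count in all 13 libraries. Among the groups set beside them, the P42 library labelled FCL-VEH female replicate 5 had 0.782 CPM of Xist and 45.2 of the Y-linked Kdm5d, and the adult library labelled FCL-VEH male replicate 6 had 53.3 CPM of Xist against 0.376 to 9.01 in the other 5 control males. The adult library labelled PAE-AAE male replicate 5 had 30.8 CPM of Xist against 0.184 to 1.69 in the other 5 exposed males.

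**Figure D1:**
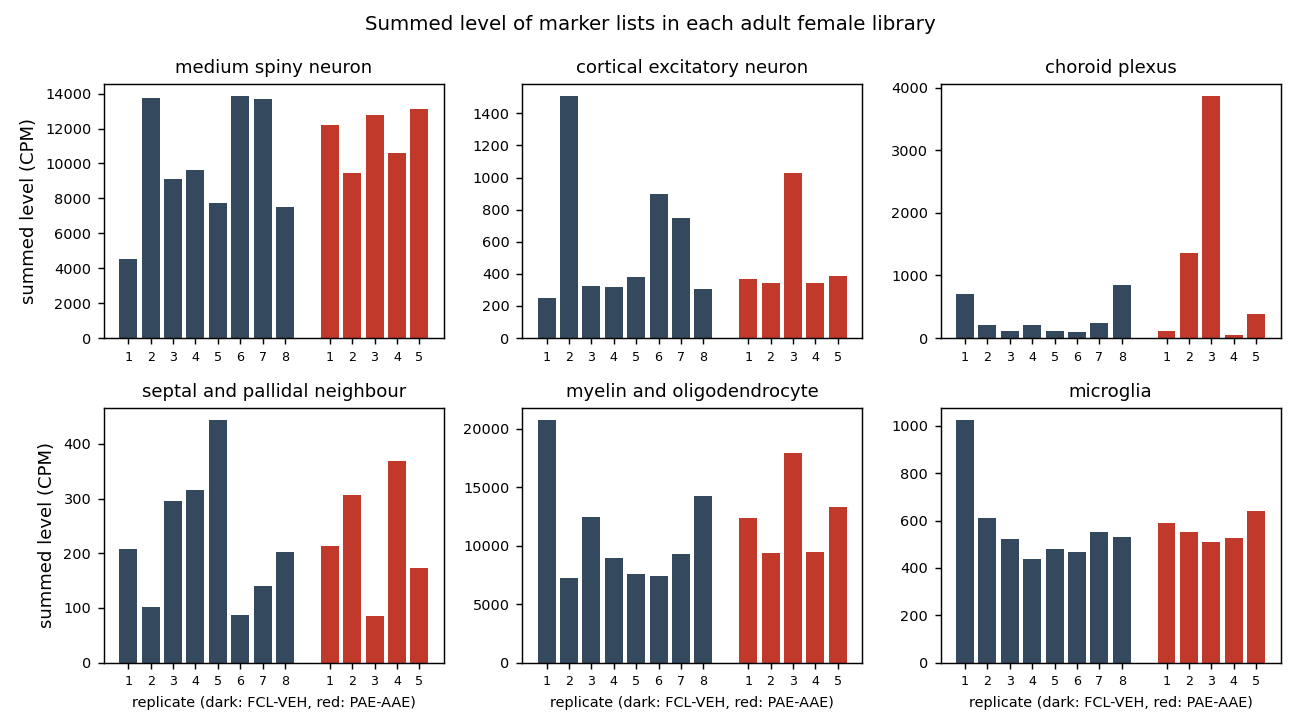
Summed CPM (linear axis) of 6 marker lists in each adult female library, 8 FCL-VEH (dark) and 5 PAE-AAE (red). Cortical markers were high in FCL-VEH replicates 2, 6 and 7 and in PAE-AAE replicate 3, and choroid plexus markers in PAE-AAE replicates 2 and 3.

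The comparison asked which transcripts differ in adult females after both exposures. No gene was called by edgeR's quasi-likelihood test at an adjusted p under 0.05 (0 of 24018 tested, 0%); the smallest adjusted p was 0.114. At an unadjusted p under 0.05 there were 1015 genes (4.23%), 400 higher (1.67%) and 615 lower (2.56%) in PAE-AAE. DESeq2 called 6, limma-voom with sample weights 1, and edgeR with 2 surrogate variables 3. The precision behind this was a median 95% interval of ± 0.20 on the log2 scale for genes at 100 CPM and over, and ± 1.40 for genes under 1 CPM. All 5 exposed libraries lay above all 8 controls in 18 genes (0.0749%) and below them in 29 (0.121%). Among 24018 genes some separate completely by chance alone, and how many would do so was not computed.

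Klhdc7a, a kelch-repeat gene (chromosome 5, 157501740 to 157507843, minus strand), had the smallest p. It was at 24.8, 27.5, 20.9, 25.9 and 20.5 CPM in PAE-AAE replicates 1 to 5, and at 9.59 to 18.6 CPM (median 11.8) in the controls. Every exposed library was above every control library. The log2 change was 0.91 ± 0.16 (SE), from 12.7 ± 3.47 CPM (SD, n = 8) to 23.9 ± 3.10 (n = 5), with an edgeR adjusted p = 0.114. It was positive under all 26 alternatives (0.81 to 1.0, adjusted p from 0.00247 to 0.639). DESeq2 (adjusted p = 0.00406), voom (0.00247), 2 surrogate variables (0.0281) and the fit without FCL-VEH replicate 4 (0.0186), which holds the highest control value, placed it past the threshold.

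Htra1 (chromosome 1, 194928069 to 194977619, plus strand) encodes a secreted serine protease that cleaves matrix proteins. It was at 144.5, 125, 106.9, 143.2 and 133.5 CPM in PAE-AAE and at 78.3 to 102.7 CPM (median 90.3) in the controls. The lowest exposed library, replicate 3, was just above the highest control. The log2 change was 0.52 ± 0.095 (edgeR adjusted p = 0.114) and stayed between 0.48 and 0.62 under the alternatives. DESeq2 (adjusted p = 0.00771) and 2 surrogate variables (0.0496) called it, with adjusted p up to 0.797 in the others.

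Vgf, the precursor of secreted neuropeptides induced by neurotrophins and activity, was at 226, 301, 270, 292 and 324 CPM against 199 to 233 (median 220). Replicate 1 lay within the control range, and the other 4 exceeded every control. The change was 0.38 ± 0.081 (edgeR adjusted p = 0.535). Sympk, the symplekin scaffold of mRNA 3' end processing, was at 116.9 to 122.6 CPM in PAE-AAE and 94.4 to 105.2 in FCL-VEH, a narrow but complete separation (0.22 ± 0.051). Hdac5, a class IIa histone deacetylase that shuttles out of the nucleus on neuronal activity, was at 171.1 to 186.5 CPM against 123.1 to 175.2 (0.29 ± 0.075), with 3 of 5 exposed libraries above all controls.

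Cirbp, the cold-inducible RNA-binding protein, was lower in PAE-AAE. It was at 38.8, 49.4, 45.2, 40 and 43 CPM, and the controls ran from 51 to 64.9 CPM (median 57.8). The groups did not overlap (-0.42 ± 0.096, edgeR adjusted p = 0.687). Edem1, which draws misfolded glycoproteins out of the endoplasmic reticulum for degradation, was at 25.1 to 30.7 CPM against 32.6 to 35.5 (-0.27 ± 0.065). Polr3e, a subunit of RNA polymerase III, was at 26 to 30.9 CPM against 32.3 to 39.9 (-0.28 ± 0.073). These 2 genes also separated completely, each with 5 exposed libraries below all 8 controls.

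Casp8, the initiator caspase of death receptors, averaged 0.608 ± 0.234 CPM against 1.30 ± 0.500 (-1.10 ± 0.29). It overlaps Cflar on the same strand, which had many times its counts, so the counting may split reads between them. Cbx3l1 averaged 0.445 ± 0.256 CPM against 1.84 ± 1.58 (-2.04 ± 0.55). It lies within Clcn3, on the opposite strand, and in libraries that do not keep strand the reads of the 2 genes cannot be told apart. Both genes overlapped between the groups, and 3 of 5 exposed libraries were below all controls.

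Spetex2l2, of a multicopy family, was at 8.30, 8.61, 8.68, 10.7 and 9.75 CPM in PAE-AAE. FCL-VEH replicates 2 and 4 were at 9.43 and 8.61 CPM, and the other 6 controls ran from 16.7 to 55.3. The exposed libraries thus all sat at the level of the 2 lowest controls (-1.57 ± 0.34, edgeR adjusted p = 0.535, DESeq2 0.00637). A pair of neighbours on chromosome 9, looked at after the values were seen, were also low or at 0 in controls 2 and 4, and another neighbour, LOC102554555, was not part of that pattern (-0.18 ± 0.45). LOC120094615 had 0 counts in all 5 exposed libraries and in controls 2 and 4, and at least 30 in each of the other 6. Spetex2el5 had 0 to 2 counts in the exposed libraries and in controls 2, 4 and 7, and 10 to 17 in the other 5. Reads of near-identical copies may be split among the family, so single members are uncertain. In adult males Spetex2l2 was at 6.93 to 17.6 CPM in PAE-AAE and 23.1 to 41.4 in FCL-VEH (-1.49 ± 0.33). In P42 females the groups overlapped widely, at 7.77 to 36.4 CPM in PAE-VEH and 8.02 to 54.7 in FCL-VEH. The P42 change was -0.54 ± 0.52, and -0.69 without the library labelled FCL-VEH female replicate 5.

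**Figure D2:**
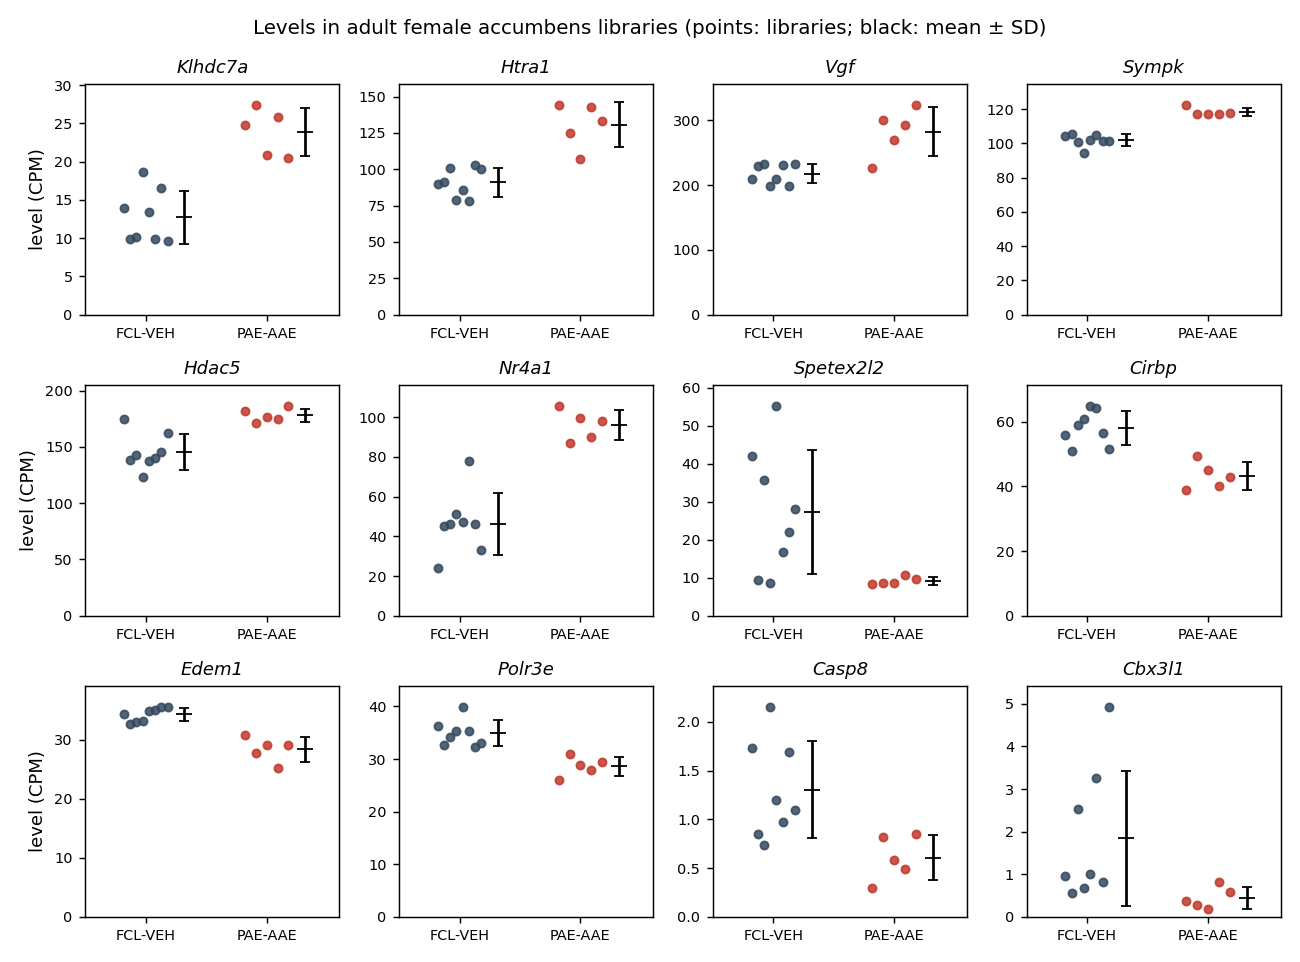
CPM (linear axes from 0) of 12 genes, with 1 point per library and the mean ± SD in black. They had the smallest p in either direction among genes with a symbol and a mean of at least 1 CPM. Klhdc7a, Htra1, Sympk, Nr4a1, Cirbp, Edem1 and Polr3e do not overlap between the groups, and Spetex2l2 spreads widely in the controls alone.

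Nr4a1, an orphan nuclear receptor induced by activity (chromosome 7, 134247153 to 134268044), was at 105.8, 87.2, 99.7, 89.9 and 98.1 CPM in PAE-AAE. In the controls it ran from 23.8 to 77.9 CPM with a median of 46. The exposed libraries were alike and all above the controls. The log2 change was 1.05 ± 0.28 (edgeR adjusted p = 0.868, from 0.222 to 1 under the alternatives), and it was 0.96 without FCL-VEH replicate 1, which holds the lowest value.

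Nr4a1 is 1 of 18 immediate early genes examined, of which 15 were higher in PAE-AAE, with a median log2 change of 0.44. Over all 24018 genes 45.06% were higher and the median was -0.02. None passed the threshold, and 7 of the 18 were higher at an unadjusted p under 0.05, against 1.67% of all genes. Nr4a1 alone of the 18 did not overlap, against 0.0749%. Egr2, a zinc-finger factor, was at 19.8, 15.4, 13.3, 20.1 and 14.4 CPM against 3.90 to 15.5 (1.01 ± 0.35). Fosl2, an AP-1 subunit, was at 45.1, 37.7, 37.7, 35.3 and 42.9 CPM against 13.4 to 37.4 (0.59 ± 0.20), with 4 of 5 above every control. Egr1 was at 175.5 to 220.5 CPM against 51.2 to 219 (0.53 ± 0.23), Egr3 at 118.1 to 154.8 against 44.3 to 122 (0.49 ± 0.18), Egr4 at 40.3 to 45.7 against 14.4 to 40.7 (0.53 ± 0.20) and Fosb at 11 to 15.3 against 5.07 to 13.3 (0.45 ± 0.19). In each of these 7 genes all 5 exposed libraries lay above the control median.

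Arc, which acts at synapses to internalise AMPA receptors, had a change of 0.69 ± 0.34, with Fos at 0.39 ± 0.32 and Junb at 0.39 ± 0.21, and none of their exposed libraries lay above all controls. Npas4 (-0.36 ± 0.44) and Nr4a2 (-0.53 ± 0.59) were lower. Nr4a2 was at 20.8 CPM in PAE-AAE replicate 3 and at 3.64 to 4.61 in the other exposed libraries, and at 22.6 and 25.9 CPM in FCL-VEH replicates 2 and 6; these 3 libraries were the highest in cortical markers. The part of cortical tissue in its values was not tested. FCL-VEH replicate 1 was the lowest library of all 13 for Egr1, Egr2, Egr3, Egr4, Fosl2, Fosb, Arc and Fos. Without it the list's median was 0.37 with 8 genes at an unadjusted p under 0.05, against 8.05% of all genes in that fit. Without it and PAE-AAE replicate 3 the median was 0.35 with 6 such genes, against 6.81%. Under all 26 alternatives the median stayed between 0.35 and 0.57.

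Promoters are shown for Vgf and Nr4a1 as the 250 bases before the RefSeq start site (GRCr8). Both are activity-regulated and among the 6 higher genes with the smallest p that have a symbol and a mean of at least 1 CPM. The Vgf window is chr12:25277021-25277270 (minus strand), with the 1 cyclic AMP response element (TGACGTCA) in capitals, 90 bases before the start site. The Nr4a1 window is chr7:134259888-134260137 (plus strand), with the 4 matches to the short form (TGACG, on either strand) in capitals, at 246, 226, 82 and 53 bases before the start site. Both start sites lie inside the span that the deposited table gives the gene.
Vgf: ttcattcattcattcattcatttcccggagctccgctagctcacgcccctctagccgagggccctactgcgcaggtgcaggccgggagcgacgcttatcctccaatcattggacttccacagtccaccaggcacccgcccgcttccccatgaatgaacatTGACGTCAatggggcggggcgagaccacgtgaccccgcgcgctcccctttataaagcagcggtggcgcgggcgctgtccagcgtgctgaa
Nr4a1: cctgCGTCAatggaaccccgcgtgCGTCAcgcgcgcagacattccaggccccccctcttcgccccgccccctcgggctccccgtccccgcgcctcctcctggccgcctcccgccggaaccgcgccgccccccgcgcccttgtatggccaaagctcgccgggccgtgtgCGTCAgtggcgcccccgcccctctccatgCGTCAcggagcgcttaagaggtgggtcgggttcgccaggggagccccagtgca
RefSeq windows were found for 13 of the 18 immediate early genes. In the whole 300-base windows, which run 50 bases past the start, the full element was in 3 of the 13 (Btg2, Dusp1 and Ier2), against 1.91% of 27457 promoters. The short form, which every full element contains, was in 10 of the 13, against 22% of all promoters. These are matches of letters only.

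All 18 heat shock and protein folding genes had a positive change (median 0.20), and none passed the threshold. Over all genes 45.06% were higher, and among genes at 100 CPM and over 62.4% were (median 0.03). At an unadjusted p under 0.05, 5 of the 18 were higher, against 1.67% of all genes. Hspb1, a small heat shock protein, was at 13.7, 11.2, 12.9, 12 and 8.71 CPM against 3.29 to 10.7 (median 4.38). Of the exposed libraries, 4 of 5 exceeded all controls, and FCL-VEH replicate 8 alone reached into their range (1.13 ± 0.31, edgeR adjusted p = 0.892). Hspa5, the BiP chaperone of the endoplasmic reticulum, was at 459, 472, 377, 534 and 442 CPM against 247 to 485 (median 316). Its highest control was FCL-VEH replicate 1, and the other 7 controls were at 339 or below, under all 5 exposed libraries (0.50 ± 0.16).

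The same control was the highest of the 8 in 14 of the 18 genes, and not in Hspb1, Hsph1, Hspa1a or Hspa1b. Calr, a calcium-binding lectin chaperone (0.31 ± 0.11), was at 517 CPM in FCL-VEH replicate 1 and at 293 to 354 in the other 7 controls, against 383 to 469 in PAE-AAE. Hsp90b1 was at 500 CPM in that control and 337 to 422 in the others, against 416 to 508 (0.27 ± 0.099). The constitutive Hspa8 was at 2013 CPM there and 1100 to 1435 in the others, against 1557 to 1702 (0.25 ± 0.11). Without FCL-VEH replicate 1 the median of the list was 0.30 with 12 of 18 at an unadjusted p under 0.05, against 8.05% of all genes in that fit, and no gene passed the threshold. The smallest changes were those of Canx (0.01 ± 0.096) and Hsp90aa1 (0.09 ± 0.14). The median was 0.15 with the lncRNA share of counts as a covariate, the lowest of the 26 alternatives. That share was 0.876% to 1.07% in PAE-AAE and 0.672% (replicate 1) to 1.62% (replicate 4) in FCL-VEH, and its part in these values was not tested.

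The endoplasmic reticulum stress element (CCAAT and CCACG with 9 bases of any kind between) was found in 4 of 14 chaperone promoters with a RefSeq window (Calr, Canx, Hsp90b1 and Hspa5), against 0.0765% of all promoters. The heat shock element searched (GAA, TTC and GAA with 2 bases of any kind between each) was in 5 of 14 (Dnaja1, Hspa8, Hspd1, Hspe1 and Hsph1), against 0.736%. Both were searched on both strands. These are matches of letters only, and the shares depend on which genes are in the list, not on the levels measured here. The Hspa5 window, the 250 bases before the start site at chr3:38452766-38453015 (plus strand), is shown because it carries the element of the chaperone with the second smallest p of the list, in capitals, 43 bases before the start.
Hspa5: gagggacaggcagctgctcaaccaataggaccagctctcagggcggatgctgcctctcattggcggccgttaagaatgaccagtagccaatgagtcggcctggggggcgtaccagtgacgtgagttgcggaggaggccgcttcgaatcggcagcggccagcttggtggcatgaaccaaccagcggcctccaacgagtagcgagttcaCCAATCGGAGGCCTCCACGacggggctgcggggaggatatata

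**Figure D3:**
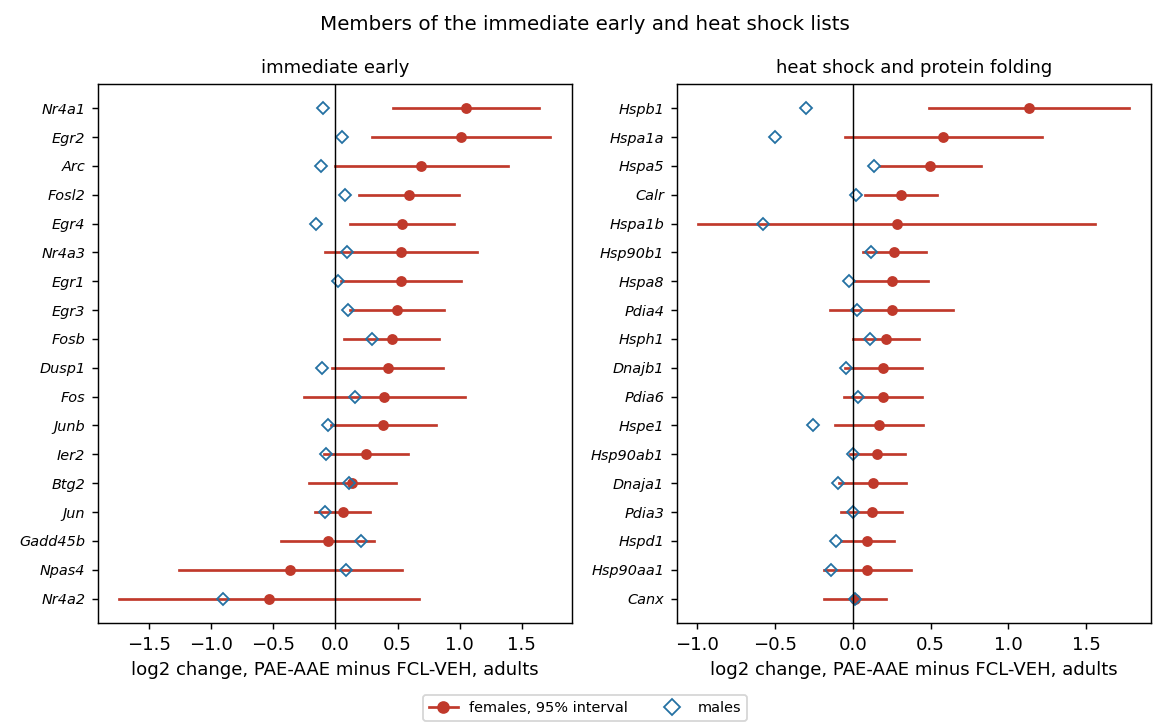
Log2 change in adult females with its 95% interval (red) and in adult males (open blue) for the 18 immediate early and the 18 heat shock and folding genes. In females 15 of 18 immediate early genes and all 18 chaperones lie above 0, and the intervals of 7 immediate early genes and 5 chaperones leave out 0 on the higher side.

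Transmitter systems gave small values. Of 20 medium spiny neuron markers 19 were higher (median 0.13), and none had an unadjusted p under 0.05. Penk, which encodes enkephalin, was at 841 to 1169 CPM against 471 to 932 (0.37 ± 0.18, unadjusted p = 0.0463 by edgeR), and 3 of 5 exposed libraries were above all controls. Pdyn, the dynorphin precursor (0.18 ± 0.14), Drd1 (0.15 ± 0.23), Drd2 (0.24 ± 0.24), Tac1, the substance P precursor (0.36 ± 0.24), and Oprm1, the mu opioid receptor (0.01 ± 0.23), overlapped. Oprm1 shares its span with Ipcef1. Without the 4 libraries high in cortical markers the spiny neuron median was 0.47 with 12 of 20 genes at an unadjusted p under 0.05, against 6.56% of all genes in that fit. Without FCL-VEH replicate 1 it was 0.06. The GABA-A receptor (-0.03), glutamate receptor (0.01), dopamine (-0.04) and ethanol-sensitive channel (-0.03) lists had medians near that of all genes, and none of their genes had an unadjusted p under 0.05.

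Among stress, clock and chromatin genes, Zbtb16, a glucocorticoid-induced zinc-finger factor, was at 9.73 to 26.7 CPM against 12.5 to 46 (-0.77 ± 0.29), and Sult1a1, a sulfotransferase, had a change of 0.50 ± 0.20. Fkbp5, the glucocorticoid-induced co-chaperone (0.13 ± 0.15), and Nr3c1, the glucocorticoid receptor (-0.04 ± 0.052), overlapped between the groups. The glucocorticoid response list had 7 of 15 genes higher and 8 lower (median -0.02). Crhr1, the corticotropin-releasing factor receptor, was at 5.01 to 6.60 CPM against 4.75 to 14.9 (-0.46 ± 0.25). The clock genes Nr1d2, a repressor (-0.26 ± 0.097), and Bmal1, an activator (0.27 ± 0.12), had opposite signs. They had the smallest p of the 16 clock genes, of which 8 were higher and 8 lower (median 0.01). Of 14 DNA methylation genes 11 were lower (median -0.12), with Mbd4, a mismatch glycosylase, at -0.24 ± 0.091 and Mbd3, a subunit of the NuRD complex, at 0.24 ± 0.12. Bcan, the proteoglycan brevican of perineuronal matrix, was at 412 to 567 CPM against 337 to 425 (0.25 ± 0.090), while 11 of the 18 perineuronal net and matrix genes were lower (median -0.07), among them the proteoglycan Vcan (-0.22 ± 0.13). Bdnf followed a single library. It was at 8.02 CPM in PAE-AAE replicate 3 and 0.67 to 2.39 in the other 4, so that its change was 0.09 ± 0.60 with that library and -0.82 without it.

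All 24 ribosomal protein genes tested were higher (median 0.20, from 0.07 to 0.31), and none had an unadjusted p under 0.05. Over all genes 45.06% were higher (median -0.02), and among genes at 100 CPM and over 62.4% were (median 0.03). Rplp0 was at 326 to 416 CPM against 258 to 387 (0.22 ± 0.12), with the lowest control in FCL-VEH replicate 4, whose lncRNA share was highest. With that share as a covariate the median was 0.05. The oxidative phosphorylation list had 19 of 21 genes higher (median 0.11), and a median of -0.03 with the covariate. Choroid plexus markers had the largest median of the neighbouring-tissue lists (0.81, 14 of 14 higher), which was 0.02 without PAE-AAE replicates 2 and 3. Red blood cell genes were higher in 6 of 6 (median 1.77, and 2.27 in adult males). Hba-a1, alpha globin, was at 6.58, 1.56, 3.31, 14.4 and 3.19 CPM against 0.158 to 3.65 (2.15 ± 0.88).

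**Figure D4:**
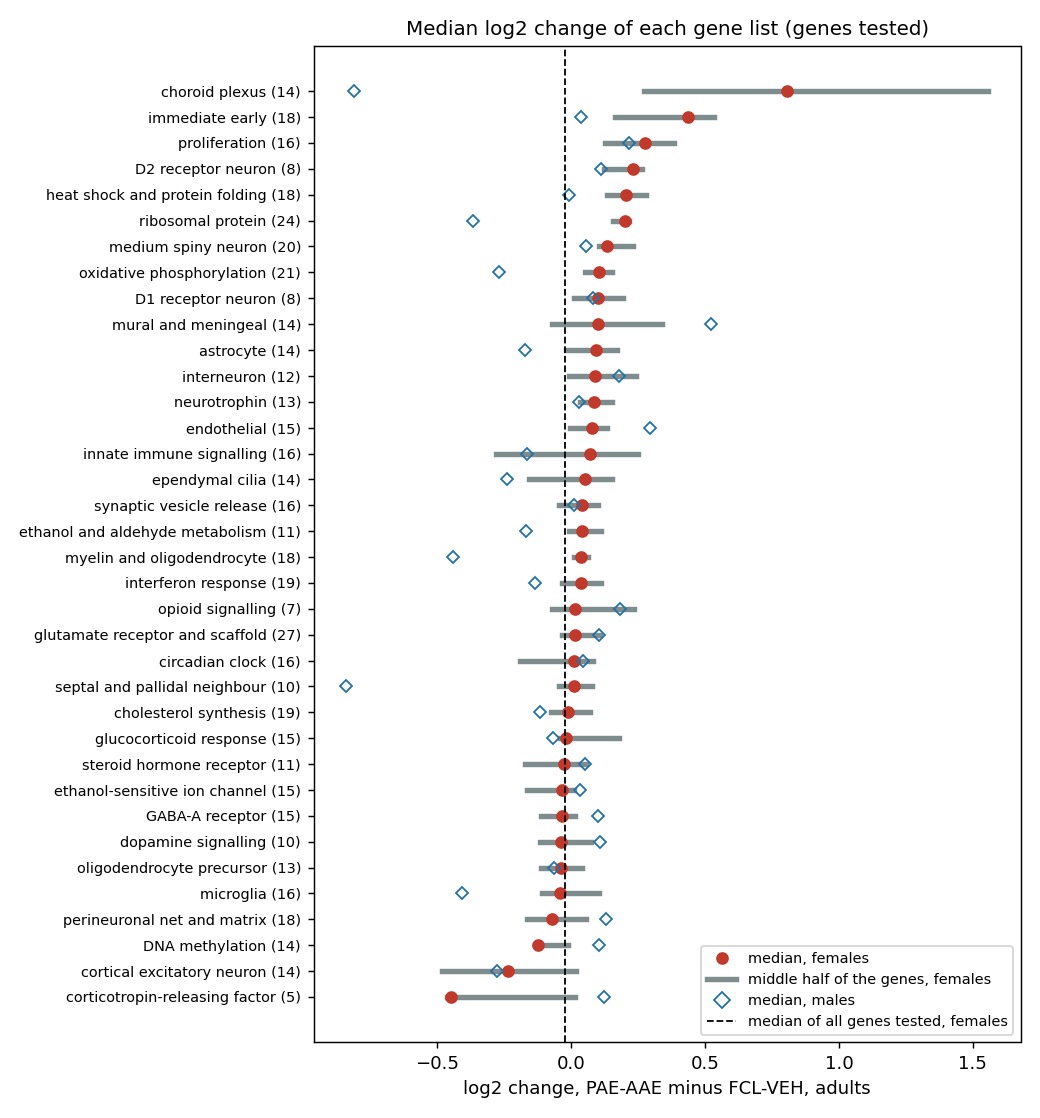
Median log2 change of 36 gene lists in adult females (red) with the interquartile range of their genes (grey), beside the median in adult males (open blue) and that of all genes in females (dashed, -0.02). The red blood cell list (1.77 in females, 2.27 in males) lies beyond the axis and is left out.

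Whether the effect differed between the sexes was tested in the same fit. By edgeR no gene passed for the female minus male difference (0 of 24018, 0%), and 2544 (10.6%) had an unadjusted p under 0.05. In males alone 0 passed (0%) and 2100 (8.74%) had an unadjusted p under 0.05. Without the control male with Xist these were 1584 and 857 of 23861, and without both males with Xist 1167 and 553 of 23781, with 0 past the threshold in each. Among genes with a symbol and a mean of at least 1 CPM, the smallest p belonged to Htra1. Its change was 0.52 in females and -0.07 ± 0.097 in males (difference 0.60 ± 0.14, edgeR adjusted p = 0.423). Apln, the apelin peptide, had 0.36 in females and -0.24 in males, and Tmem238 0.54 and -0.54. On the other side were Ptprm, a receptor tyrosine phosphatase, with -0.18 and 0.23, Zfp534l1 with -0.45 and 0.39, and the pseudogene Fignl2-ps1 with -0.68 and 0.99. Each had an adjusted p = 0.423 for the difference.

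Beside their female values, the male changes of Klhdc7a (-0.03 ± 0.17), Nr4a1 (-0.10 ± 0.29), Cirbp (-2.55e-05 ± 0.096), Polr3e (-0.02 ± 0.073) and Vgf (0.03 ± 0.082) were near 0. The female minus male difference was 0.94 ± 0.23 for Klhdc7a and 1.16 ± 0.41 for Nr4a1, neither past the threshold (edgeR adjusted p = 0.423 for each). Without both males with Xist these differences were 0.84 and 0.98, and that of Htra1 was 0.59 (adjusted p = 0.936 for each). Spetex2l2 had a difference of -0.08 ± 0.46. The immediate early list had a male median of 0.04, the chaperones -0.01 and the ribosomal proteins -0.37. Without the control male with Xist these medians were 0.05, -0.01 and -0.24.

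In P42 females, other libraries with prenatal ethanol alone, Nr4a1 had a change of 1.07 ± 0.29, Htra1 of 0.42 ± 0.12 and Vgf of 0.41 ± 0.11. Klhdc7a was at 0.05 ± 0.19 and Cirbp at -0.08 ± 0.094. The immediate early median was 0.49 and that of the chaperones 0.04. Beside it, the P42 medians were 0.59 for cortical excitatory, 0.34 for medium spiny neuron, 0.48 for D2 neuron and -1.08 for choroid plexus markers, whose part in these values was not tested. None of the named genes passed the threshold at P42, and the difference between the ages was not tested. Without the library labelled FCL-VEH female replicate 5, the values were 0.97 for Nr4a1, 0.44 for Htra1, 0.38 for Vgf and 0.42 for the immediate early median.

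**Figure D5:**
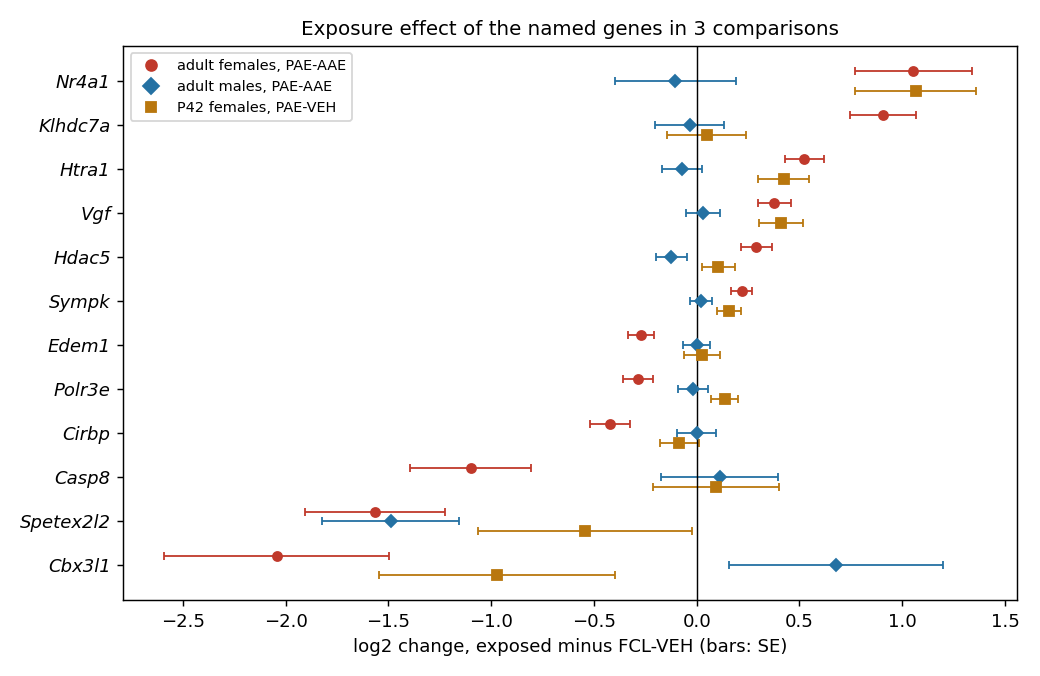
Log2 change with SE for the 12 named genes in adult females (red), adult males (blue) and P42 females with prenatal ethanol alone (orange). Nr4a1, Htra1, Vgf, Sympk, Hdac5 and Klhdc7a lie above 0 in both female comparisons, Klhdc7a by 0.05 at P42. Spetex2l2 and Cirbp lie below 0 in all 3, Cirbp at -2.55e-05 in males.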

How the data were processed

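Bulk RNA of the nucleus accumbens was sequenced in 54 libraries. The authors deposited 1 table with raw read counts and FPKM values per gene for each library. Per the submitters' processing notes, fastp and HISAT2 2.0.5 were used. A read counter, an annotation and a genome build are named in none of the sources used. Per the labels' protocols, cDNA was primed with random hexamers, the libraries are not strand-specific, and RNA integrity numbers were above 6.3 except for 1 at 5.8, with a mean of 7.2. Of 46505 genes and loci, 720 without a name (0.271% to 0.412% of counts) were left out of library sizes and tests. The IDs of 45780 of the other 45785 matched RefSeq's GRCr8 annotation with the same start and end. Depth, without molecular identifiers, gives the counting error alone.

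Counts of the 25 adult libraries were fitted together with edgeR 4.0.16 (TMM, default filter by group, quasi-likelihood F test, two-sided) in R 4.3.3, with 4 group means, a biological coefficient of variation of 39.6% and Benjamini-Hochberg adjustment over 24018 genes. CPM are scaled by TMM unless said otherwise. The P42 values come from 1 fit of all 54 libraries. The authors' deposited FPKM served only to compare levels between genes. Groups come from the titles. The labels give 1 batch date and no litter, and do not say that each library is a separate animal, so p-values measure the spread between these libraries. Among the 13 libraries no 2 held identical values.

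Named genes are the 6 in each direction with the smallest p among genes with a symbol and a mean of at least 1 CPM, the 3 in each direction for the sex difference, up to 2 per list, and a fixed set; lists are given by counts and medians, with no test. The members, the 37 gene lists (539 genes, 530 tested) and the rule were chosen with earlier results of these data known. The 26 alternatives covered normalization, filters, DESeq2 1.42.0, limma-voom 3.58.1, sva 3.50.0, the libraries fitted, covariates and each library left out. Leaving out the 4 libraries high in cortical markers, leaving out the 2 high in choroid plexus markers, the lncRNA share as a covariate, and leaving out both adult males with Xist were chosen after seeing the data. Scripts were tested on simulated data. The single-gene values of 1 list member are not reported here.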

Additional observations from a re-analysis of the deposited data

Results flagged for a closer look

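A value is given here where the highest or lowest library of a group stood far from the rest of its group, by Dixon's gap test at the 95% level. Of 264 groups of values examined, 27 (10.2%) had such a value, and chance gives about 1 in 20. FCL-VEH replicate 1 accounted for 8 of the 27, PAE-AAE replicate 1 for 5 and PAE-AAE replicate 3 for 4. No cause was tested.

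In FCL-VEH replicate 1, Hspa5 was high at 485 CPM and P2ry13, a purinergic receptor of microglia that overlaps Med12l, at 13.1 CPM. Its summed levels were high for the heat shock and folding list (10046.1 CPM), microglia (1022.7 CPM), ethanol and aldehyde metabolism (962.1 CPM), innate immune signalling (178.5 CPM) and corticotropin-releasing factor (55.37 CPM). Its DNA methylation list was low at 680 CPM. In FCL-VEH replicate 2, Kcnj3, a potassium channel subunit, was high at 70.3 CPM and the ethanol-sensitive channel list at 932.6 CPM. In replicate 4, Bmal1 was high at 46.1 CPM and Sympk low at 94.4 CPM. Ccnb1, a mitotic cyclin, was high at 7.31 CPM in replicate 6, and Kcnj13, which overlaps Gigyf2, at 6.61 CPM in replicate 7. Replicate 8 was high in Hspb1 (10.7 CPM), in the red blood cell list (7.861 CPM) and in the Y-linked Kdm5d (0.527 CPM, a trace beside the 28.6 CPM or more per total count of adult males). PAE-AAE replicate 1 had a like trace of another Y-linked gene, Ddx3y, at 0.913 CPM per total count against 0.726 in FCL-VEH replicate 8, with Kdm5d at 0.0937.

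In PAE-AAE replicate 1, Sympk was high at 122.6 CPM, Apln at 43 CPM, the glutamate transporter Slc1a2 at 6913 CPM, Bcan at 567 CPM and the astrocyte list at 12107 CPM. In replicate 3, Tbr1, a cortical transcription factor, was high at 43.2 CPM, Rims1, of the presynaptic active zone, at 277 CPM, Bdnf at 8.02 CPM and the cortical list at 1028.7 CPM. In replicate 5, Rorb, also expressed in cortex, was low at 10.5 CPM.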

How the results depend on the processing

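Of 26 alternatives, 4 called any gene in adult females. DESeq2 called 6, voom 1, 2 surrogate variables 3, and the fit without FCL-VEH replicate 4 called 1, so that leaving out 1 library gave 0 to 1. The genes were Klhdc7a in 4 alternatives, Htra1 and LOC134482742 in 2, and Spetex2l2, LOC102553246 and LOC120094615 in 1 each. For adult males DESeq2 called 3 and voom 1, and the sex difference had 0 in every alternative that could test it. Unadjusted counts moved with 1 library: without FCL-VEH replicate 1, 1923 of 23890 genes had an edgeR p under 0.05, with 0 past the threshold. No paired analysis was possible because replicate numbers only follow the order of deposition. Medium spiny neuron, choroid plexus and ribosomal medians moved with dissection markers or lncRNA share, as given beside them. Other lists also moved and changed sign. Over the 26 alternatives the cortical excitatory median ran from -1.17 to 0.18, ependymal cilia from -0.19 to 0.54 and proliferation from -0.19 to 0.56. The septal and pallidal median ran from -0.25 to 0.30 and that of myelin from -0.33 to 0.24.

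Without the 4 libraries high in cortical markers, log2 changes were -0.083 for Gbx1, -0.063 for Lhx8, -0.061 for Mobp, -0.10 for Mbp, -0.069 for Olig2, -0.10 for Oprm1 and -0.31 for Bdnf. With the lncRNA share as a covariate they were 0.10 for Drc1 and 0.41 for Dnah11. With voom they were 0.21 for Gabrq, 0.50 for Ucn3, 0.16 for Esr1, -0.024 for Oprm1 and -0.21 for Bdnf. Without FCL-VEH replicate 1 and PAE-AAE replicate 3 they were 0.0051 for Gabra3, 0.16 for Gabrq, -0.017 for Rims1, -0.049 for Ccnb1, -0.92 for Bdnf and 0.0063 for Nr3c1. Without the 2 libraries high in choroid plexus markers they were -0.0017 for Ccnb1 and -1.14 for Bdnf, which was -0.29 with 3 tissue scores and -0.042 with surrogate variables. Over the fits without 1 library and the fit without that pair, ranges were -0.16 to 0.0051 for Gabra3, -0.66 to 0.16 for Gabrq, -0.017 to 0.32 for Rims1, -0.072 to 0.0063 for Nr3c1, -0.049 to 0.45 for Ccnb1, -0.081 to 0.12 for Oprm1, -0.0016 to 0.18 for Fkbp5 and -0.92 to 0.40 for Bdnf. The cause was not tested.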

Other observations

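Beside the genes described, several others separated completely between the 5 exposed and the 8 control libraries with small changes. They were picked after their values were seen, none passed the threshold, and they are given as values only. Lower in PAE-AAE were Rcor3, a corepressor of the REST complex, at 12.4 to 14.1 CPM against 14.7 to 18.6 (-0.29), the RNA helicase Ddx42 at 77 to 88.1 against 91 to 100.2 (-0.18), and Orc4, of the origin recognition complex, at 44.6 to 49.8 against 51.6 to 61.7 (-0.23). Tpr, a nuclear pore protein, was at 112.6 to 127.7 CPM against 130 to 138.3 (-0.14), and the exonuclease Xrn2 at 53.3 to 59.1 against 60.5 to 66.2 (-0.16). Pcm1, a centriolar satellite protein, was at 127.9 to 151.8 against 151.9 to 184.7 (-0.22), and Havcr2, the TIM-3 receptor, at 3.84 to 5.54 against 5.81 to 10.9 (-0.56). Higher in PAE-AAE were Wdtc1 at 131.8 to 148.6 CPM against 105.2 to 131.7 (0.22), Lypla2, a depalmitoylating enzyme, at 49.8 to 56.9 against 42.9 to 49 (0.19), and Tubd1, delta tubulin, at 6.21 to 7.74 against 4.01 to 6.01 (0.35). Of all 24018 genes, 18 (0.0749%) separated on the higher side and 29 (0.121%) on the lower side, and some do so by chance. Male signs were compared for separated genes with a symbol and a mean of at least 1 CPM. The same sign was seen in adult males for 4 of 11 on the higher side and 8 of 21 on the lower. The share of all genes with the same sign in both sexes was not computed.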
